A study of Arabidopsis thaliana with 21 samples.

Results

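The genes of tetrapyrrole, chlorophyll and bilin synthesis were followed in etiolated Arabidopsis seedlings. The set holds 32 genes of the 33655 features counted. It runs from the first enzymes of 5-aminolevulinic acid (ALA) formation to chlorophyll, heme and phytochromobilin. The genes were chosen by locus from the pathway and not by a rule on measured values, although earlier results of these data were known. The protochlorophyllide oxidoreductase (*POR*) genes were left out. The study asked how the SPA proteins and COP1, together with the photoreceptor phyB, act on gene expression when dark-grown seedlings first meet red light. The samples were whole seedlings of the Col-0 background, 3 days old, pulsed with far-red light after germination and then kept in darkness. The 21 libraries fall into 7 groups of 3. Wild-type Col-0, the weak allele *cop1-4* and the quadruple mutant *spaQ* (spa1 spa2 spa3 spa4) were sampled after 1 h of red light, and their dark libraries were not analysed here. The lines *phyB-GFP FL* and *phyB-GFP ΔC* were sampled both in darkness and after 1 h of red light. They carry full-length phyB, or phyB lacking its C-terminal end, fused to GFP in the phyA-211 phyB-9 background, so both lines lack the endogenous phyA and phyB. The promoter of the transgenes is not given in the sources used here.

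All plant tetrapyrroles start from ALA, which plastids make from glutamate bound to its tRNA. ALA is built up to protoporphyrin IX, where the path forks: insertion of magnesium leads to chlorophyll, and insertion of iron leads to heme and, after opening of the ring by heme oxygenase, to phytochromobilin, the chromophore of the phytochromes. Free intermediates are photosensitisers, so dark-grown seedlings hold the path back, largely by inhibition of glutamyl-tRNA reductase, the enzyme encoded by the HEMA genes, through the FLU protein. The COP1-SPA ubiquitin ligase targets transcription factors that promote greening, and the PIF factors, which repress greening genes in darkness, bind G-box sequences.

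Because PIF and HY5 factors bind the G-box, the letters CACGTG were searched on both strands of the 300 bases upstream of each annotated 5' end (RefSeq annotation of TAIR10.1). They were present in 6 of the 32 members (18.8%) and in 7.09% of 27443 protein-coding genes. The 6 members were *CAO*, *CRD1*, *FC2*, *HEMD*, *HY2* and *NOL*. CACATG or CATGTG, the PBE-box, was present in 3 members (9.38%, against 13.1% of all), GATAAG or its reverse complement CTTATC in 4 (12.5%, against 14.5%) and CCAATC or GATTGG in 2 (6.25%, against 12.2%). These shares are descriptions, and a match is not a measured binding site. The 120 bases upstream of the annotated 5' end are shown for *CAO*, *CHLH* and *HEMA1*, which rose in red light (below), and for *CRD1*, which shares the G-box with *CAO* but was not called in red light. Capitals mark the G-boxes, of which *CAO* has 2 in this stretch and *CRD1* has 1, whereas *CHLH* and *HEMA1* have none. The corresponding stretch of *GUN4* lies within a neighbouring gene and is not shown.
*CAO* promoter, chr1:16851272-16851391, minus strand: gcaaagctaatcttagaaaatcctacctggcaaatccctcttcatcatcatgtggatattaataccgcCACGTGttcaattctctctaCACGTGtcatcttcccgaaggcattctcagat
*CRD1* promoter, chr3:21076385-21076504, plus strand: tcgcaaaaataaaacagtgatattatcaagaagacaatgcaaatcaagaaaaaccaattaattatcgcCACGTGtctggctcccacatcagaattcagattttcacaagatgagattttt
*CHLH* promoter, chr5:4392430-4392549, minus strand: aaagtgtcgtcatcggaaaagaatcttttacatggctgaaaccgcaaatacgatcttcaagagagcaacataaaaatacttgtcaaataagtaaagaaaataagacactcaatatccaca
*HEMA1* promoter, chr1:21626403-21626522, minus strand: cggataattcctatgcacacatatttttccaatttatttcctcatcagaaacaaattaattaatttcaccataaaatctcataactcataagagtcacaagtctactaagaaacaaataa

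Depth ranged from 15678019 to 29523833 counts per library. Levels are given as CPM, the share of a library's counts after one TMM scaling of all 21 libraries, where 3 counts equal 0.102 to 0.191 CPM, and this floor covers counting error only. Of the mutated genes, *SPA1* stood at 345, 332 and 340.0 CPM in Col-0 and at 42.7, 42.0 and 46.0 CPM in *spaQ*, *SPA3* was likewise lower there (-2.61 on the log2 scale), and transcripts of *SPA2* and *SPA4* were not. *COP1* was at -0.85 in *cop1-4*. Transcripts of *PHYB*, which include those of the transgenes, were at 149.9, 142 and 145 CPM in Col-0, 1339, 1151 and 1432 CPM in FL in darkness and 1164, 1251 and 1271 CPM in ΔC in darkness. In red light they were at 1213, 1303 and 876 CPM in FL, the lowest in replicate 3, and at 1281, 1255 and 1177 CPM in ΔC. In FL, the red-light library of replicate 3 stood apart. It was the highest library of its group for 29 of the 31 members that could be tested, against 42.2% of all genes tested, so the comparisons that use it are given with and without it. Replicate 3 of ΔC in red light was the highest of its group for 27 members (34.4% of all genes), and replicate 2 of FL in darkness for 24 (37.7%).

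Within the set the levels spanned a wide range. In Col-0 in red light the highest level per kilobase of exon was that of *CHLP*, geranylgeranyl reductase, at 647 ± 8.16 CPM per kilobase (SD, n = 3). It was followed by *CRD1*, a subunit of the cyclase that closes the fifth ring, at 494 ± 9.72, and by *CHLH*, the large subunit of magnesium chelatase, at 371 ± 12.6. The next 2 places, *HEMA1* at 188 ± 6.93 and *CHLI1* at 152 ± 4.51 CPM per kilobase, were also apart by more than their spread, whereas *CHLI1* and *HEMC* at 149 ± 4.68 were not. The lowest levels per kilobase above the floor were those of *HO2* at 9.40 ± 0.517, *HY2* at 7.32 ± 0.446 and *GUN4* at 5.67 ± 0.0368. The value of *GUN4* carries a limit: 73.0% of its exon bases (chr3:21948501-21949796, minus strand) overlap a gene on the opposite strand, and the strand setting of the counting is not given in the sources used here, so reads of the pair may be uncounted or shared. Exon overlap with the neighbour that shared the most bases was 16.2% for *CHLP*, 9.85% for *CRD1* and under 9% for the other members. *HEMC*, *CRD1* and *FC1* each overlap a further gene, whose bases are not included. *HO3* (AT1G69720), one of the heme oxygenase genes, had no count in 18 of the 21 libraries and at most 2 in any, and it was not tested. Altogether the members took 0.443% to 1.05% of the counts of a library.

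**Figure D1:**
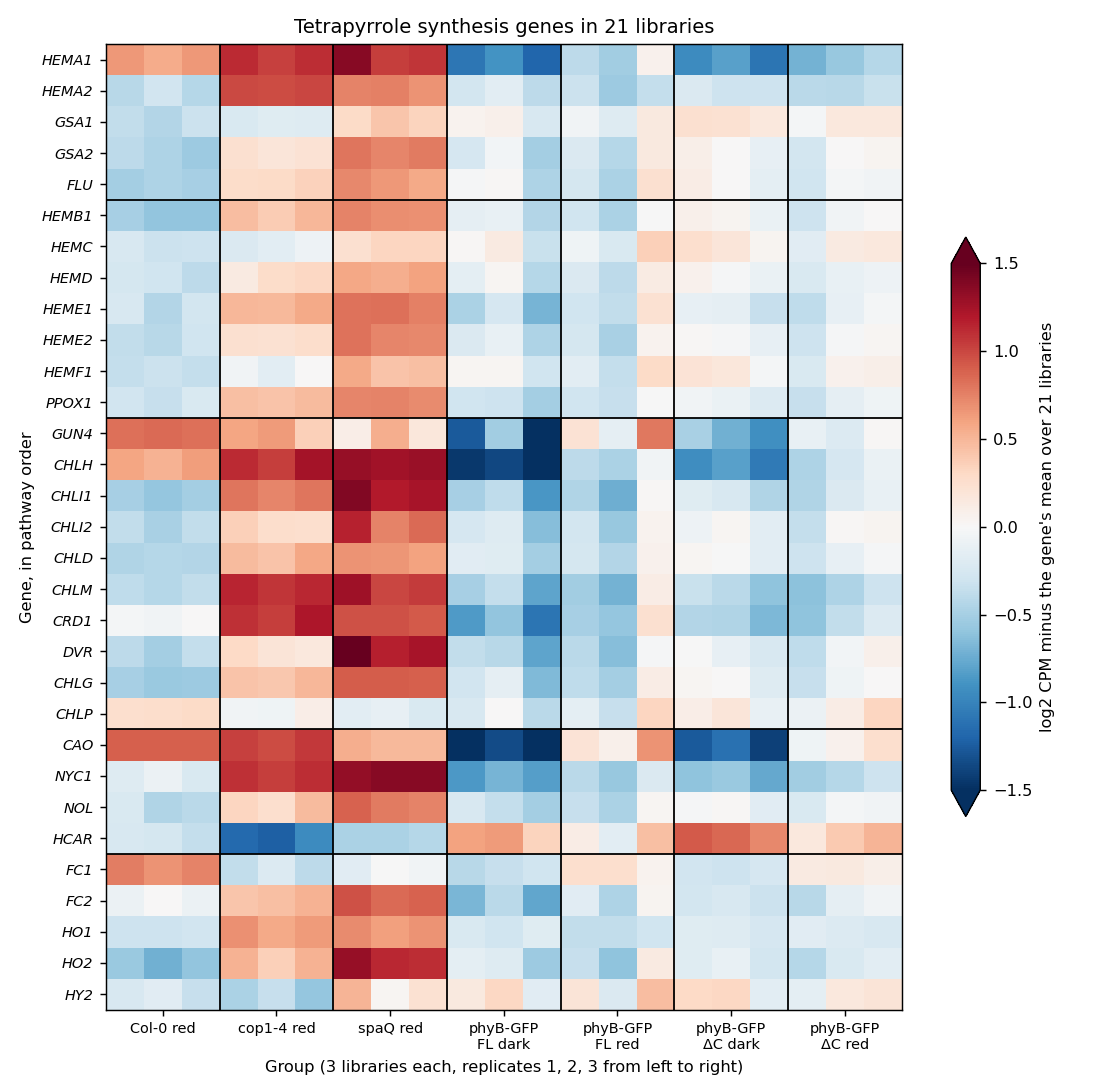
Levels of 31 members (rows, in pathway order, *HO3* left out) in the 21 libraries (columns, 3 per group), as log2 CPM minus the mean of the gene over all libraries. Red marks values above and blue values below that mean. Most rows are highest in *spaQ* and *cop1-4*, whereas *GUN4*, *CHLH* and *CAO* are lowest in the dark phyB-GFP libraries and *FC1* is highest in Col-0.

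Relative to Col-0, most of the pathway was higher in *spaQ* after 1 h of red light. Calls needed an adjusted p-value under 0.05 (edgeR quasi-likelihood test, Benjamini-Hochberg over all 20396 genes tested) and a log2 fold change beyond 1 in either direction. Of the 31 members tested, 16 were called higher in *spaQ* and 0 lower, where 15.0% of all genes tested were called higher and 17.5% lower. The median log2 fold change of the members was 1.01, against 0.01 over all genes. By the adjusted p-value alone 26 members were higher and 5 lower, where 40.2% of all genes were higher and 39.2% lower. In *cop1-4*, 7 members were called higher and 1 lower, where 10.7% of all genes were called higher and 13.1% lower, and the median of the members was 0.68 against 0.00. Without the fold limit 26 were higher and 4 lower in *cop1-4*, where 36.4% of all genes were higher and 36.6% lower. Both comparisons use the same 3 Col-0 libraries.

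The summed level of the 32 members was between 7005 and 7243 CPM in Col-0, between 10352 and 11355 in *cop1-4* and between 11803 and 12405 in *spaQ*, without overlap between Col-0 and either mutant. Other lists moved in the same libraries. The summed level of 4 photosynthetic genes was between 6062 and 6440.1 CPM in Col-0, between 23836 and 27006 in *cop1-4* and between 23842 and 25550.2 in *spaQ*. *RBCS1A* made up most of each sum. Of the 4 genes, 2 were called higher in *spaQ* and 4 in *cop1-4*, and 1 was called lower in *spaQ* than in *cop1-4*. The summed level of 7 root genes was between 292 and 305, between 129.9 and 158 and between 146 and 177 CPM in Col-0, *cop1-4* and *spaQ*. Of these, 3 were called higher and 2 lower in *spaQ*, and 2 higher and 1 lower in *cop1-4*. *NRT2.1* of that list was near 0 throughout. *CASP1* made up most of the Col-0 sum, at 207, 219 and 222 CPM. It was at 47.3, 50.6 and 57.3 CPM in *cop1-4* and at 24.9, 23.6 and 25.5 in *spaQ*. For 7 seed reserve genes the sum was between 216 and 425, between 2.68 and 143 and between 1168 and 2129.9 CPM in the same order. Of these, 4 were called higher and 1 lower in *spaQ*, and all 7 lower in *cop1-4*. The part of these lists in the result on the pathway was not tested. In whole seedlings, fewer cells of a type and less RNA per cell cannot be told apart.

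**Figure D2:**
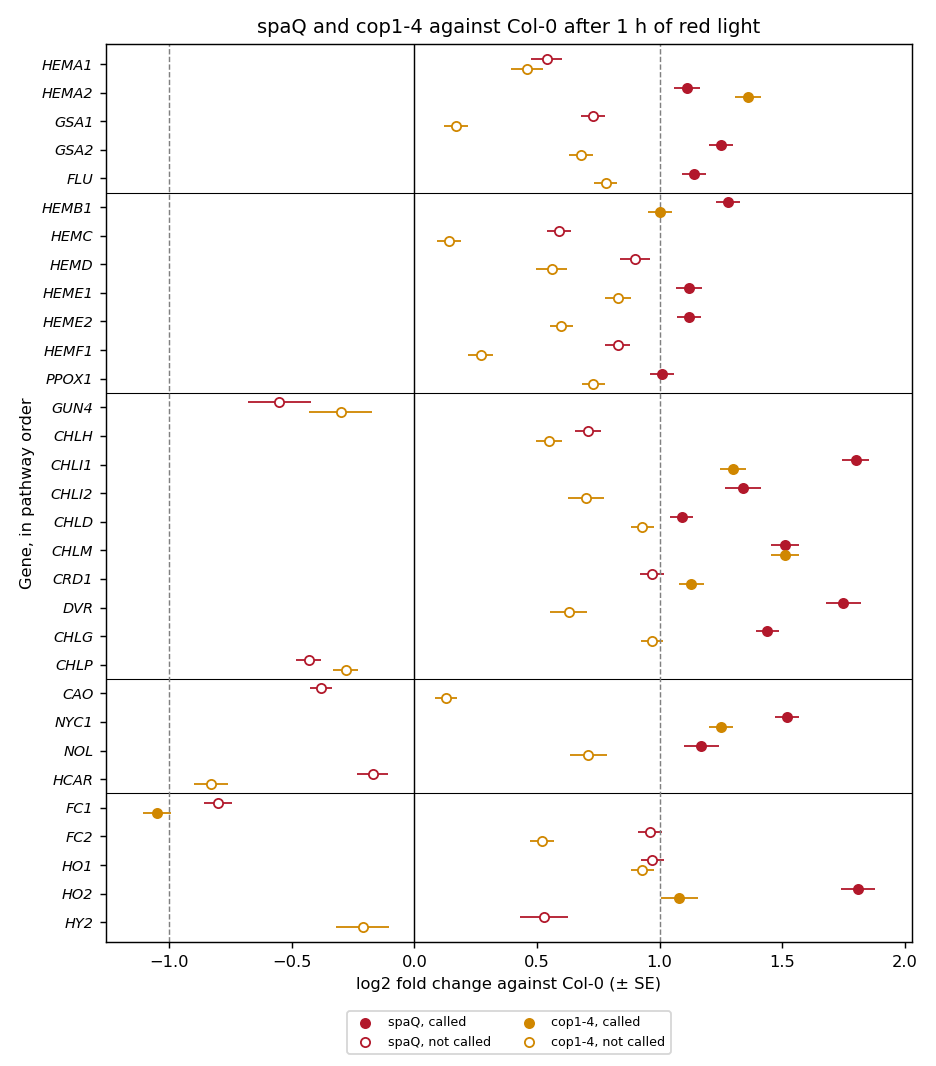
Log2 fold change against Col-0 in red light (x axis, ± SE) of 31 members in pathway order (y axis) for *spaQ* and *cop1-4*. Filled points were called and open points were not, dashed lines mark the log2 limit of 1, and horizontal lines separate the pathway steps. All members up to *PPOX1* lie to the right of 0 in both mutants (with library size alone, *GSA1* and *HEMC* were below 0 in *cop1-4*), whereas *GUN4*, *CHLP*, *HCAR* and *FC1* lie to its left.

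All 5 genes of ALA formation were higher in both mutants by the adjusted p-value, with 3 called in *spaQ* and 1 in *cop1-4*, although *GSA1* turned to -0.03 in *cop1-4* when library size alone was used for scaling. *HEMA1* (AT1G58290), the main glutamyl-tRNA reductase gene of green tissue, was at 442, 416 and 445 CPM in Col-0, 615, 574 and 610.5 in *cop1-4* and 726, 578 and 591 in *spaQ*. The mutant libraries were all above those of Col-0, but the log2 fold changes of 0.54 ± 0.064 (SE) in *spaQ* (adjusted p = 2.03e-08) and 0.46 ± 0.064 (SE) in *cop1-4* (adjusted p = 4.54e-07) stayed under the limit. Its paralogue *HEMA2* (AT1G09940), known for expression in roots and non-green tissue, was at 30.9, 33.7 and 30.4 CPM in Col-0, 82.0, 80.8 and 82.0 in *cop1-4* and 69.1, 69.3 and 65.7 in *spaQ*. It was called in both, at 1.11 ± 0.053 (SE) in *spaQ* (adjusted p = 3.56e-16) and 1.36 ± 0.053 (SE) in *cop1-4* (adjusted p = 6.76e-18). *FLU* (AT3G14110), whose product inhibits glutamyl-tRNA reductase in darkness, was at 78.9, 81.0 and 79.5 CPM in Col-0, 135, 136 and 142 in *cop1-4* and 184, 175 and 166 in *spaQ*. The log2 fold change of *FLU* was 1.14 ± 0.048 (SE) in *spaQ*, where it was called, and 0.78 ± 0.048 (SE) in *cop1-4*, where it was not. Transcripts of the inhibitor were thus higher together with those of its target. Of the 2 genes for glutamate-1-semialdehyde aminotransferase, which makes ALA, *GSA2* (AT3G48730) was called in *spaQ* at 1.25 and *GSA1* (AT5G63570) was not, at 0.73.

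The 7 genes from ALA to protoporphyrin were also all higher by the adjusted p-value, with 4 called in *spaQ* and 1 in *cop1-4*, although *HEMC* turned to -0.06 in *cop1-4* under the same scaling. *HEMB1* (AT1G69740), ALA dehydratase, gave the largest log2 fold change of this step, 1.28 ± 0.049 (SE) in *spaQ* (adjusted p = 2.47e-18). In *cop1-4* it sat at the limit, at 1.00, and fell below the limit with DESeq2 at 0.99. The uroporphyrinogen decarboxylase genes *HEME1* (AT3G14930) and *HEME2* (AT2G40490) were both at 1.12 in *spaQ*, and *PPOX1* (AT4G01690), protoporphyrinogen oxidase, was just inside the limit at 1.01. *HEMD* (AT2G26540), *HEMF1* (AT1G03475) and *HEMC* (AT5G08280), which encode uroporphyrinogen III synthase, coproporphyrinogen oxidase and porphobilinogen deaminase, were under it at 0.90, 0.83 and 0.59. In *cop1-4* the log2 fold changes of the step ran from 0.14 to 1.00.

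In the magnesium branch, 8 of 10 members were higher and 2 were lower by the adjusted p-value in each mutant, with 6 called higher in *spaQ* and 3 in *cop1-4*. *CHLI1* (AT4G18480), the ATPase subunit of magnesium chelatase, was at 251, 237 and 247 CPM in Col-0, 614, 584 and 617 in *cop1-4* and 924, 804 and 830.2 in *spaQ*. These are log2 fold changes of 1.30 ± 0.053 (SE) (adjusted p = 1.75e-17) in *cop1-4* and 1.80 ± 0.054 (SE) (adjusted p = 1.22e-20) in *spaQ*, and the groups did not overlap. *CHLH* (AT5G13630), the porphyrin-binding subunit of the same enzyme, moved less, with 1782, 1698 and 1814 CPM in Col-0, 2563, 2423 and 2802 in *cop1-4* and 2917, 2824 and 2903 in *spaQ*. Its log2 fold changes were 0.71 ± 0.053 (SE) in *spaQ* (adjusted p = 3.33e-12) and 0.55 ± 0.053 (SE) in *cop1-4* (adjusted p = 6.67e-10), both under the limit. The other subunit genes *CHLD* (AT1G08520) and *CHLI2* (AT5G45930) were called in *spaQ* at 1.09 and 1.34.

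*GUN4* (AT3G59400), whose product activates magnesium chelatase, was lower while the subunit genes were higher. It was at 7.32, 7.41 and 7.32 CPM in Col-0, 6.23, 6.40 and 5.30 in *cop1-4* and 4.43, 6.03 and 4.64 in *spaQ*, so that every mutant library was below every Col-0 library. The log2 fold change was -0.55 ± 0.128 (SE) in *spaQ* (adjusted p = 0.000424) and -0.30 ± 0.129 (SE) in *cop1-4* (adjusted p = 0.0396). The value in *cop1-4* no longer passed when any of 5 libraries (each Col-0 library, or replicate 1 or 3 of *cop1-4*) was left out, with adjusted p up to 0.178, and the overlap with its neighbour applies to both values.

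Downstream of the chelatase, *CHLM* (AT4G25080), the methyltransferase that follows, was at 186, 181 and 188 CPM in Col-0, 538, 512 and 535 in *cop1-4* and 586, 489 and 503 in *spaQ*. It was called at 1.51 in both mutants. *CRD1* (AT3G56940) stood at 734, 725 and 753 CPM in Col-0, 1595, 1537 and 1739 in *cop1-4* and 1455, 1458 and 1419.5 in *spaQ*, called in *cop1-4* at 1.13 ± 0.050 (SE) (adjusted p = 9.07e-17) and just under the limit in *spaQ* at 0.97 ± 0.050 (SE) (adjusted p = 1.47e-15). *DVR* (AT5G18660), which reduces the vinyl group of the divinyl intermediates, was at 55.9, 51.6 and 57.3 CPM in Col-0, 90.6, 83.8 and 82.1 in *cop1-4* and 216, 165 and 174 in *spaQ*. It was called in *spaQ*, at 1.75 ± 0.073 (SE), and was under the limit in *cop1-4*, at 0.63 ± 0.076 (SE). *CHLG* (AT3G51820), chlorophyll synthase, was called in *spaQ* at 1.44. *CHLP* (AT1G74470), which supplies the phytyl tail of chlorophyll and also serves tocopherol synthesis, went the other way, with 1337, 1345 and 1370.0 CPM in Col-0, 1083, 1073 and 1204 in *cop1-4* and 1008, 1033 and 955 in *spaQ*. The groups did not overlap, and the log2 fold changes were -0.43 ± 0.051 (SE) in *spaQ* (adjusted p = 2.05e-08) and -0.28 ± 0.051 (SE) in *cop1-4* (adjusted p = 2.8e-05).

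The genes of the chlorophyll b cycle split by direction. *NYC1* (AT4G13250), the chlorophyll b reductase that starts the return from chlorophyll b to chlorophyll a, was at 136, 147 and 133 CPM in Col-0, 334, 320.0 and 337 in *cop1-4* and 389.7, 402 and 401 in *spaQ*, and was called in both at 1.52 ± 0.049 (SE) and 1.25 ± 0.049 (SE), in *spaQ* and *cop1-4* respectively. *NOL* (AT5G04900), its partner subunit, was called in *spaQ* at 1.17. *CAO* (AT1G44446), the oxygenase that makes chlorophyll b, was at 253, 253 and 253 CPM in Col-0, 278, 269 and 285 in *cop1-4* and 199.7, 192 and 191 in *spaQ*. It was lower in *spaQ* at -0.38 ± 0.045 (SE) (adjusted p = 2.61e-08) and slightly higher in *cop1-4* at 0.13 ± 0.045 (SE) (adjusted p = 0.0141), a direction that turned to -0.07 when library size alone was used for scaling. *HCAR* (AT1G04620), the reductase that completes the return to chlorophyll a, was at 36.5, 35.8 and 33.6 CPM in Col-0, 19.1, 18.4 and 22.4 in *cop1-4* and 30.9, 30.9 and 31.8 in *spaQ*. It was lower in *cop1-4*, at -0.83 ± 0.070 (SE) (adjusted p = 7.38e-11), with a smaller difference of -0.17 ± 0.064 (SE) in *spaQ* (adjusted p = 0.0163), which did not pass without replicate 1 of Col-0 (adjusted p = 0.0721) and was -0.42 with library size alone.

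At the iron branch the ferrochelatase genes moved in opposite directions. *FC1* (AT5G26030), whose product is known for heme supply beyond the photosynthetic apparatus, was at 94.0, 88.3 and 92.3 CPM in Col-0, 42.7, 48.0 and 42.2 in *cop1-4* and 49.0, 54.9 and 53.2 in *spaQ*. It was the 1 member called lower in *cop1-4*, at -1.05 ± 0.058 (SE) (adjusted p = 1.19e-14), and was at -0.80 ± 0.056 (SE) in *spaQ* (adjusted p = 9.66e-13), where scaling by library size alone brought it past the limit at -1.05. *FC2* (AT2G30390), the ferrochelatase of photosynthetic tissue, was at 60.7, 64.7 and 60.5 CPM in Col-0, 86.1, 88.6 and 92.8 in *cop1-4* and 126, 116 and 119 in *spaQ*, with log2 fold changes of 0.96 ± 0.049 (SE) in *spaQ* (adjusted p = 1.26e-15) and 0.52 ± 0.050 (SE) in *cop1-4* (adjusted p = 8.8e-10). In these 9 libraries no Col-0 value of *FC1* or *FC2* overlapped a mutant value.

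The heme oxygenase *HO1* (AT2G26670), which makes biliverdin for the phytochrome chromophore, was at 149, 148 and 151 CPM in Col-0, 295, 273 and 285 in *cop1-4* and 299, 281 and 293 in *spaQ*. Its log2 fold changes of 0.97 ± 0.047 (SE) and 0.93 ± 0.048 (SE) in *spaQ* and *cop1-4* were both just outside the limit. *HO2* (AT2G26550) was called in both, with 16.3, 14.7 and 15.9 CPM in Col-0, 34.6, 30.8 and 34.6 in *cop1-4* and 59.6, 52.9 and 52.0 in *spaQ*, at 1.81 ± 0.069 (SE) and 1.08 ± 0.075 (SE) in *spaQ* and *cop1-4*. In *spaQ* the log2 fold changes of *HO2* and *CHLI1* were the highest of the members, and they were not apart by their SE. *HY2* (AT3G09150), phytochromobilin synthase, was at 14.6, 15.3 and 13.6 CPM in Col-0, 12.5, 13.5 and 11.5 in *cop1-4* and 24.7, 17.7 and 20.2 in *spaQ*. It was higher in *spaQ*, at 0.53 ± 0.097 (SE) (adjusted p = 2.04e-05), and in *cop1-4* the value was -0.21 ± 0.108 (SE) (adjusted p = 0.0799), which passed at -0.41 with library size alone (adjusted p = 0.00154).

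The number of calls depended on the scaling. With library size alone in place of TMM factors the median of all genes shifted to -0.24 in *spaQ* and -0.20 in *cop1-4*. The median of the members was then 0.76 in *spaQ* and 0.48 in *cop1-4*, still above that of all genes. Of the 9 members then called in *spaQ*, 8 were higher and 1 lower. In *cop1-4*, 4 of the 6 called were higher and 2 lower. The share of higher calls among all genes called went from 46.1% to 32.7% in *spaQ* and from 44.8% to 32.3% in *cop1-4*. Shares of all genes tested are not given here for this scaling. *HEMB1*, *CHLI1*, *CHLI2*, *CHLM*, *DVR*, *CHLG*, *NYC1* and *HO2* were the 8 members still called higher in *spaQ*.

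Between *spaQ* and *cop1-4* the difference was called for 1 member, *DVR*, at 1.12 ± 0.072 (SE) (adjusted p = 1.66e-12), where 2.88% of all genes were called higher and 5.63% lower. Without replicate 1 of *spaQ* it stood at the limit, 1.00, and the count was 0. By the adjusted p-value alone, 23 members were higher in *spaQ* and 4 were lower, where 26.7% of all genes were higher and 26.1% lower. The differences of at least 0.51 besides *DVR* were those of *HY2* at 0.75, *HO2* at 0.73, *HCAR* and *CHLI2* both at 0.65, *GSA2* at 0.57, *GSA1* and *HEMF1* both at 0.56, *HEME2* at 0.52 and, in the other direction, *CAO* at -0.51. *HEMA2* was lower in *spaQ* than in *cop1-4* at -0.25 ± 0.050 (SE) (adjusted p = 0.000135).

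Several steps are encoded by a pair of genes, and the ratio of their levels per kilobase within a library does not depend on the scaling between libraries. The ratio of *FC1* to *FC2* was 1.45 ± 0.0996 in Col-0 (SD, n = 3 here and in the following), so *FC1* was the more abundant transcript. It was 0.488 ± 0.0427 in *cop1-4* and 0.429 ± 0.0409 in *spaQ*, where *FC2* was the more abundant. The order of the 2 genes was thus turned over in the mutants. In the phyB-GFP lines the ratio lay near 1, from 0.836 ± 0.0432 in ΔC in darkness to 1.12 ± 0.268 in FL in red light. The ratio of *HEMA1* to *HEMA2* was 13.1 ± 1.18 in Col-0, 8.85 ± 1.06 in *spaQ* and between 6.76 and 7.14 in the *cop1-4* libraries, without overlap between Col-0 and either mutant. In the phyB-GFP lines it was 3.80 ± 0.0894 in FL in darkness and 7.21 ± 1.36 after red light, and 4.11 ± 0.428 and 5.77 ± 0.434 in ΔC. *HEMA1* thus stayed the more abundant gene in every group. The ratio of *CHLI1* to *CHLI2* went from 4.56 ± 0.0853 in Col-0 to 6.32 ± 0.461 in *spaQ* and 6.92 ± 0.289 in *cop1-4*, and that of *GSA1* to *GSA2* went from 0.731 ± 0.0572 to 0.51 ± 0.0364 and 0.514 ± 0.0184 in the same order. These ratios are a description, and their differences were not tested.

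**Figure D3:**
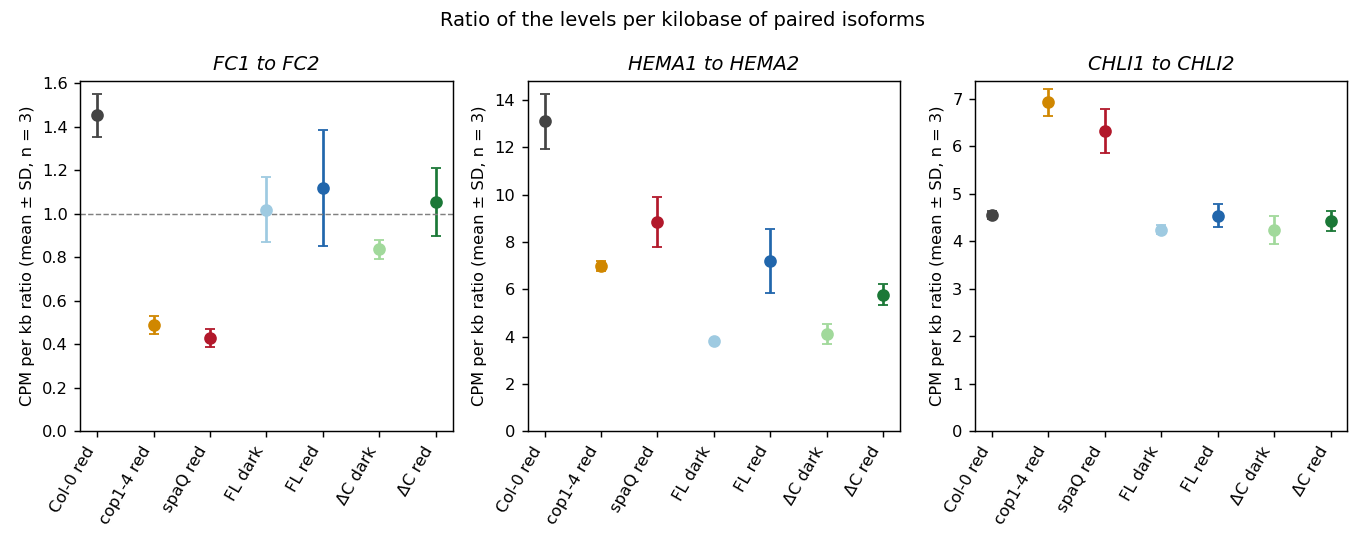
Ratio of the levels per kilobase (y axis, no unit) of 3 pairs of genes for the same step, in the 7 groups (x axis). Points are the mean and bars the SD of 3 libraries, and the dashed line marks a ratio of 1. *FC1* to *FC2* is above 1 in Col-0 and below 1 in *spaQ* and *cop1-4*.

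The red light response could be measured in the phyB-GFP lines, and there it touched few members. In *phyB-GFP FL*, 4 of the 31 members tested were called higher after 1 h of red light and 0 lower, with a limit of 1.5-fold here in place of the log2 limit of 1, where 3.28% of the 20459 genes tested were called higher and 1.72% lower. They were *CAO*, *GUN4*, *CHLH* and *HEMA1*. The median log2 fold change of the members was 0.09, against 0.00 over all genes. By the adjusted p-value alone *NYC1* and *FC1* were added, where 5.28% of all genes were higher and 3.64% lower. Of the 31 members, 24 estimates were above 0 in FL, where 49.3% of all genes were, but 10 were above 0 without replicate 3 of red light, with a median of -0.09. No share of all genes is given for the fit without that library. The summed level of the 4 photosynthetic genes was between 4175 and 5859 CPM in darkness and between 4697 and 8207 in red light in FL. In ΔC it was between 5135 and 6319 and between 5108 and 6499 CPM, with overlap in both lines. *RBCS1A* made up most of each sum, and 1 of the 4 genes was called higher in red light in each line. *CAB3* of that list went from 40.4, 49.2 and 34.3 to 191, 175 and 372 CPM in FL. In ΔC it went from 62.3, 69.7 and 51.6 to 195, 213 and 252 CPM. The 7 seed reserve genes summed to between 308 and 624 and between 265 and 767 CPM in FL. In ΔC they summed to between 75.7 and 411 and between 3.23 and 60.4 CPM. Of the 7, 0 were called between darkness and red light in either line. The 7 root genes summed to between 232 and 298 and between 195 and 304 CPM in FL. In ΔC they summed to between 234 and 274 and between 247 and 306 CPM. Of the 6 root genes tested, 0 were called in either line. In FL in red light the highest photosynthetic sum, 8207 CPM, and the lowest root sum, 195 CPM, were both in replicate 3. The part of these lists in these results was not tested.

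*CAO* (chr1:16848308-16851271, minus strand) gave the largest response. It was at 43.0, 54.0 and 42.8 CPM in darkness and at 158, 144 and 218 CPM after red light in FL, a log2 fold change of 1.87 ± 0.148 (SE) (adjusted p = 1.19e-06). In *phyB-GFP ΔC* it went from 57.1, 62.7 and 51.6 to 130.2, 142 and 162 CPM, or 1.33 ± 0.145 (SE) (adjusted p = 4.42e-05). In both lines every red library was above every dark one. *CHLH* (chr5:4387307-4392429, minus strand) went from 432, 459 and 369.6 to 895, 846 and 1137 CPM in FL, at 1.17 ± 0.125 (SE) (adjusted p = 2.13e-05), and from 618, 672 and 567 to 859, 993 and 1099.8 CPM in ΔC, at 0.66 ± 0.123 (SE) (adjusted p = 0.0047). The groups again did not overlap, although the call in ΔC was lost, at 0.57, without replicate 3 of ΔC in red light.

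*GUN4* was at 1.72, 2.87 and 1.38 CPM in darkness and 4.81, 3.76 and 7.12 CPM in red light in FL, at 1.35 ± 0.267 (SE) (adjusted p = 0.00433). In ΔC it was at 2.94, 2.51 and 2.18 and 3.80, 3.59 and 4.17 CPM, and the log2 fold change of 0.58 ± 0.252 (SE) did not pass (adjusted p = 0.315), although it did in a fit of the ΔC libraries alone (adjusted p = 0.0498). Its dark and red libraries did not overlap in either line. *HEMA1* (chr1:21623700-21626402, minus strand) went from 134, 151 and 124 to 215, 197 and 295 CPM in FL, at 0.77 ± 0.135 (SE) (adjusted p = 0.00186), and in ΔC from 147, 161 and 132 to 173, 190.4 and 211 CPM, at 0.38 ± 0.134 (SE) (adjusted p = 0.173). The genes called in FL thus encode an enzyme of ALA formation, a subunit and the activator of magnesium chelatase, and the oxygenase that makes chlorophyll b. Without replicate 3 of FL in red light the values in FL were 1.67 for *CAO*, 1.03 for *CHLH*, 1.06 for *GUN4* and 0.57 for *HEMA1*, all with an adjusted p under 0.05, and *HEMA1* was then under the 1.5-fold limit, so that 3 members were called.

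**Figure D4:**
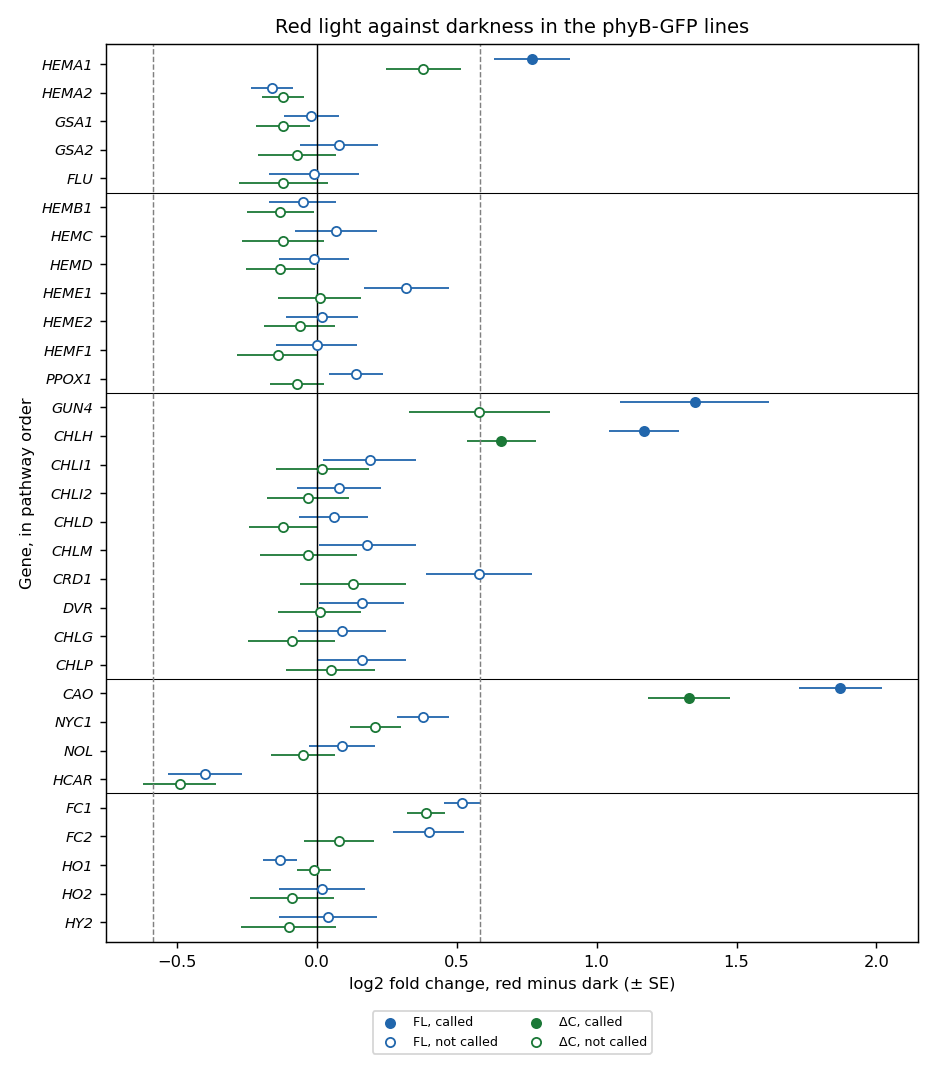
Log2 fold change of red light against darkness (x axis, ± SE) of 31 members in pathway order (y axis) in *phyB-GFP FL* and *phyB-GFP ΔC*. Filled points were called and open points were not, and dashed lines mark a 1.5-fold change. *CAO*, *CHLH*, *GUN4* and *HEMA1* stand out to the right in FL, and the 7 members from *HEMB1* to *PPOX1* lie between -0.14 and 0.32 in both lines.

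*FC1* was higher in red light in both lines, by less than the limit. It was at 41.5, 43.4 and 44.8 CPM in darkness and 65.7, 65.6 and 57.1 CPM in red light in FL, and at 45.2, 44.4 and 46.3 and 60.3, 60.9 and 58.4 CPM in ΔC. The log2 fold changes of 0.52 ± 0.067 (SE) (adjusted p = 0.000139) and 0.39 ± 0.067 (SE) (adjusted p = 0.00214) passed the adjusted p-value in both lines but not the fold limit. *FC2* was at 40.0, 48.9 and 37.6 and 57.1, 46.7 and 66.3 CPM in FL and at 53.2, 54.8 and 51.6 and 48.3, 59.0 and 62.3 CPM in ΔC, and the dark and red libraries overlapped in both lines. *NYC1* was higher in FL at 0.38 ± 0.093 (SE) (adjusted p = 0.0173), a value that did not pass without replicate 1 or 3 of FL in darkness (adjusted p 0.083 and 0.057), and was at 0.21 in ΔC (adjusted p = 0.325).

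*CRD1* was at 416, 498 and 350.2 CPM in darkness and 533, 502 and 887 CPM in red light in FL. The groups did not overlap, but the log2 fold change of 0.58 ± 0.189 (SE) was just under the limit and did not pass (adjusted p = 0.0818), and without replicate 3 of FL in red light it was 0.27. In ΔC it was at 0.13, from 551, 547 and 469 to 494, 579 and 649 CPM. *HCAR* was the 1 member lower in ΔC by the adjusted p-value, from 81.3, 78.2 and 70.9 to 48.0, 56.2 and 61.1 CPM at -0.49 ± 0.131 (SE) (adjusted p = 0.0478). This did not hold when any of the 6 libraries was left out, with adjusted p from 0.0551 to 0.178. In FL it was at -0.40 ± 0.133 (SE) (adjusted p = 0.0882), and it was lower there without replicate 3 of red light, at -0.57 (adjusted p = 0.00458).

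Of the other members none passed the test in either line. In FL, *CHLP* was at 946, 1123 and 845 CPM in darkness and 1016, 881 and 1400.1 CPM in red light, and in ΔC at 1198, 1275 and 1039 CPM and 1059, 1214 and 1403 CPM. *HO1* was at 157, 149 and 162 CPM in darkness and 143, 142 and 149.6 CPM in red light in FL, and at 162, 160.3 and 155 CPM and 163, 159 and 155 CPM in ΔC. For *HY2* the levels were 19.1, 21.4 and 15.4 CPM and 19.8, 14.8 and 23.9 CPM in FL, and 21.3, 21.3 and 15.5 CPM and 15.6, 19.2 and 19.7 CPM in ΔC. The dark and red libraries of these chromophore and phytyl genes overlapped in both lines. *HEMA2* stood at 34.0, 36.9 and 31.4 CPM in darkness and 32.8, 28.2 and 32.1 CPM in red light in FL, and at 35.4, 33.3 and 33.2 CPM and 31.1, 30.9 and 32.6 CPM in ΔC. *FLU* stood at 110.4, 113 and 81.2 CPM and 93.4, 80.7 and 132 CPM in FL, and at 121, 112 and 101 CPM and 91.4, 110.0 and 108 CPM in ΔC. The dark and red libraries of *FLU* overlapped in both lines and those of *HEMA2* in FL. Over the whole set, 2 members were called higher in *phyB-GFP ΔC*, *CAO* and *CHLH*, and 0 lower, where 1.59% of all genes were called higher and 1.3% lower. The median of the members was -0.05 against -0.01. By the adjusted p-value alone *FC1* was added among the higher and *HCAR* among the lower, where 2.89% of all genes were higher and 2.27% lower.

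**Figure D5:**
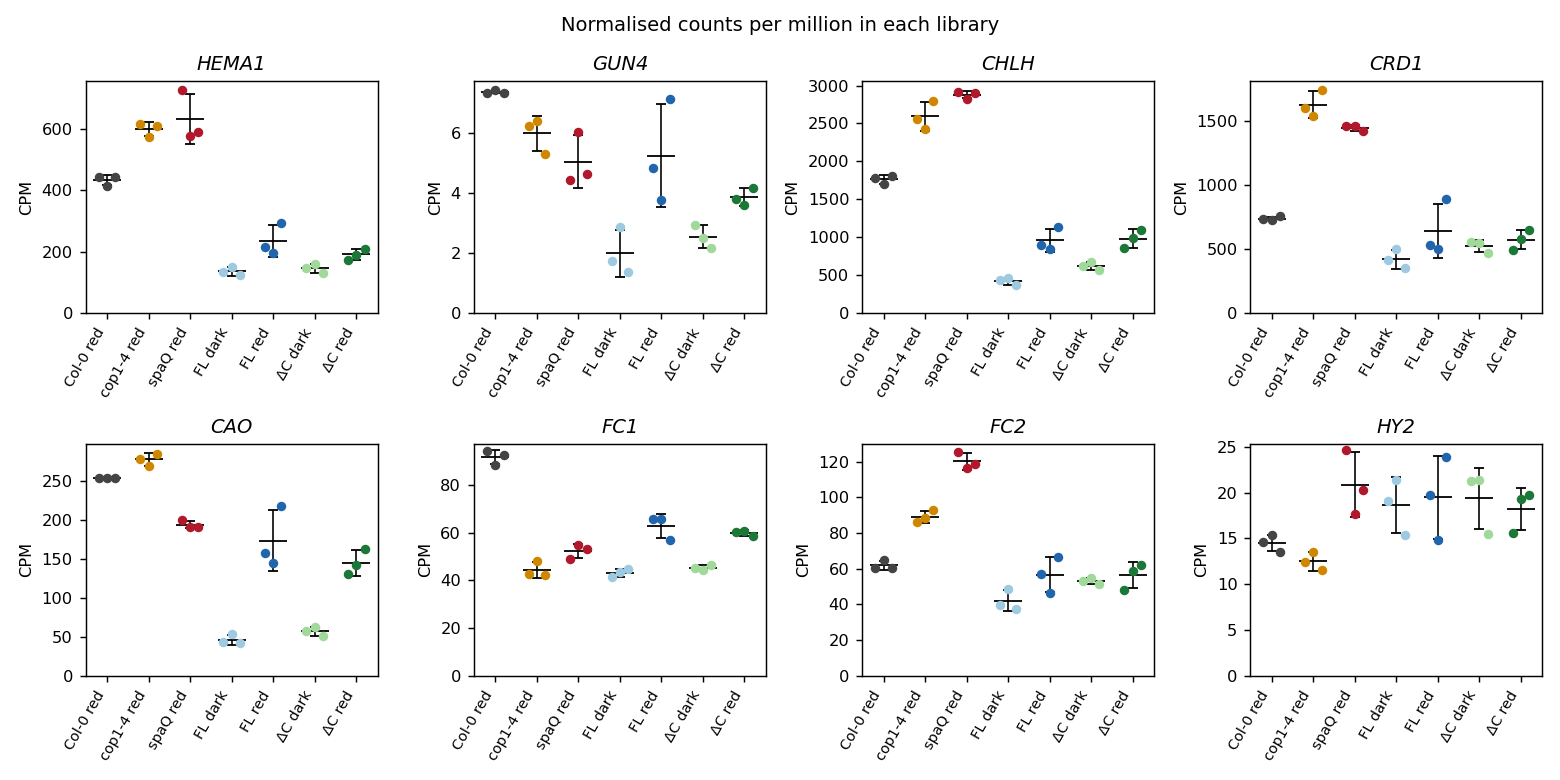
Level of 8 members in every library (y axis, CPM from one scaling of all libraries, starting at 0) by group (x axis). Coloured points are libraries, black bars the mean ± SD of 3. Every red library of *CAO*, *CHLH* and *HEMA1* lies above every dark one in both phyB-GFP lines and below those of Col-0, and *FC1* and *FC2* differ between Col-0 and the mutants in opposite directions.

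A call in FL and not in ΔC does not show that the lines differ, so a term for the interaction of light with line was tested. It passed for 0 of 31 members by edgeR and for 0 by DESeq2, where 0.103% of all genes passed by edgeR. At an unadjusted p under 0.05 there were 2 members, *CHLH* and *CAO*, where 4.52% of all genes passed. The response in ΔC minus that in FL was -0.51 ± 0.174 (SE) for *CHLH* (adjusted p = 0.789), -0.54 ± 0.203 (SE) for *CAO* (adjusted p = 0.928), -0.77 ± 0.368 (SE) for *GUN4* and -0.39 ± 0.190 (SE) for *HEMA1* (adjusted p = 0.999 for both). The estimate was below 0 for 29 of the 31 members, where 48.9% of all genes were above 0. This count rested on the library that stood apart: without replicate 3 of FL in red light 13 of 31 were below 0 and 18 above, and the median went from -0.15 to 0.03. The share of all genes below 0 in that fit is not given here. The values of the members that responded were then -0.37 for *CHLH*, -0.34 for *CAO*, -0.47 for *GUN4* and -0.19 for *HEMA1*.

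Between the lines themselves no member was called. In darkness *CHLH* was higher in ΔC than in FL by the adjusted p-value, at 0.55 ± 0.123 (SE) (adjusted p = 0.0393), a log2 difference just under the 1.5-fold limit, where 0.802% of all genes were higher and 1.08% lower by the adjusted p-value and 1.19% were called. Its libraries did not overlap, at 432, 459 and 369.6 CPM in FL and 618, 672 and 567 CPM in ΔC. The adjusted p rose to between 0.0615 and 0.187 when any of the 6 libraries was left out. The count of 0 in darkness stood beside 0 calls by DESeq2 and 7 members at an unadjusted p under 0.05, a threshold that 13.9% of all genes passed. The median of the members was 0.23 against 0.00 over all genes, and 30 of 31 estimates were above 0, where 51.3% of all genes were. In red light 0 members passed by edgeR, where 2.93% of all genes passed the adjusted p-value and 1.67% were called, and 0 were called by DESeq2. At an unadjusted p under 0.05 there were 2 members, or fewer than the 16.5% of all genes that passed that threshold. The values there were -0.44 ± 0.245 (SE) for *GUN4* (adjusted p = 0.4), -0.29 ± 0.134 (SE) for *HEMA1* (adjusted p = 0.296) and -0.26 ± 0.142 (SE) for *CAO* (adjusted p = 0.393). Without replicate 3 of FL in red light these were -0.15, -0.10 and -0.06, and the median of the members went from 0.04 to 0.20, with 27 of 31 above 0. The share of all genes above 0 in that fit is not given here. Of the 7 seed reserve genes, 5 were called lower in ΔC than in FL in red light and 0 were called in darkness. Their part in the differences between the lines was not tested.

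*phyB-GFP FL* was also set against Col-0 in red light, in one fit of all 21 libraries with a log2 limit of 1. No member was called, where 2.93% of the 20949 genes tested were, and DESeq2 called 0 as well. At an unadjusted p under 0.05 there were 18 members, where 40.2% of all genes passed. By the adjusted p-value alone 8 members were higher and 5 lower, where 15.1% of all genes were higher and 14.4% lower. This balance turned over without replicate 3 of FL in red light, where 1 was higher (*GSA1*) and 9 were lower, and the median of the members went from 0.14 to -0.05. The shares of all genes in that fit are not given here. The lower members included 3 of those that responded to red light in FL, although *PHYB* transcripts were higher in FL than in Col-0. *HEMA1* was at -0.88 ± 0.121 (SE) (adjusted p = 1.08e-05), *CHLH* at -0.88 ± 0.108 (SE) (adjusted p = 2.4e-06) and *CAO* at -0.55 ± 0.115 (SE) (adjusted p = 0.00105). *FC1* was lower at -0.54 ± 0.063 (SE) (adjusted p = 1.12e-06), and *GUN4* at -0.49 ± 0.194 (SE) did not pass (adjusted p = 0.0624). Without replicate 3 of FL in red light *HEMA1* and *CHLH* were called, at -1.10 and -1.04, and *GUN4* passed the adjusted p-value at -0.80 (adjusted p = 0.00297). The highest value in the other direction was that of *HCAR*, 0.44 ± 0.117 (SE) (adjusted p = 0.00657), which did not pass without that library (adjusted p = 0.0723) or in a fit of these 2 groups alone (adjusted p = 0.0506). FL differs from Col-0 by the transgene and by the loss of phyA, and these cannot be told apart here.

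Genes of the pathway outside the set were read from a list of 19, covering further isoforms, scaffold proteins, siroheme synthesis and chlorophyll breakdown, of which 16 were tested. In *spaQ* 7 were called higher and 1 lower, and in *cop1-4* 3 were higher and 1 lower, at the backgrounds given above. The 3 highest values in *spaQ* were those of genes of chlorophyll breakdown. *CLH2*, a chlorophyllase, was at 1.07, 1.23 and 0.993 CPM in Col-0, 8.08, 8.22 and 6.71 in *cop1-4* and 7.83, 9.08 and 8.85 in *spaQ*, at log2 fold changes of 2.97 in *spaQ* and 2.80 in *cop1-4*. *PAO*, pheophorbide a oxygenase, was at 1.76 and 1.21, and *RCCR*, red chlorophyll catabolite reductase, at 1.79 and 1.53. The synthesis genes were thus not alone in being higher. The others called in *spaQ* were *GBP*, whose product binds glutamyl-tRNA reductase, at 1.56, *SGR2* at 1.51, *LIL3.1* at 1.20 and *SIRB* at 1.06. The chlorophyllase gene *CLH1* was the 1 lower in *spaQ*, at -1.81, and *TSPO*, which encodes a tetrapyrrole-binding membrane protein, the 1 lower in *cop1-4*, at -4.29. Between the mutants, *SGR2* (1.25) and *TSPO* (3.32) were called higher and *CLH1* (-1.15) lower in *spaQ*, where 2.88% of all genes were called higher and 5.63% lower. In red light in FL, *CLH1* was called higher, going from 14.1, 16.7 and 11.2 to 26.4, 26.1 and 34.4 CPM at 1.02 ± 0.130 (SE) (adjusted p = 0.000105). *TSPO* was called at 0.65 (adjusted p = 0.0351), a call lost without replicate 2 or 3 of FL in darkness or replicate 1 or 2 of FL in red light (adjusted p up to 0.155). In FL 3.28% of all genes were called higher in red light and 1.72% lower. In ΔC 0 of the 16 were called, where 1.59% of all genes were called higher and 1.3% lower. The interaction of light with line passed for 0 of the 16, where 0.103% of all genes passed.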

How the data were processed

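RNA of 21 seedling libraries was sequenced. The authors mapped the reads (TopHat, Bowtie2, TAIR10) and counted them per gene with HTSeq 0.8.0, and the deposited values are these raw counts. The strand setting is not given in the sources used here. Of 33655 features, 32548 are loci that matched the RefSeq annotation of TAIR10.1.

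Counts were tested in R 4.3.3 with edgeR 4.0.16 (TMM factors, filterByExpr, quasi-likelihood test, Benjamini-Hochberg over all genes tested), in one fit of the 9 Col-0, *cop1-4* and *spaQ* libraries, one of the 12 phyB-GFP libraries and, for *phyB-GFP FL* against Col-0, one of all 21. Limits were an adjusted p of 0.05 with a log2 fold change of 1 or, within the phyB-GFP lines, a 1.5-fold change. DESeq2 1.42.0, other scalings, filters, fold limits and fits, the replicate block and leaving out each library were the alternatives. Levels per kilobase used the union of exons. The fit was tested on simulated data.

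The members and lists were chosen with earlier results of these data known. Values in every library were given for 12 gate-keeping and branch-point genes and for up to 3 called members with the largest rise and 3 with the largest fall in each comparison, and other members were given by ranges and counts. Further library values were added after they were seen. No source says that replicates of a group came from separate cultures, so p-values measure the spread between these samples, which may be technical.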

Additional observations from a re-analysis of the deposited data

How the results depend on the processing

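The counts of members called were compared over the alternatives. Without a fold limit they were 31 in *spaQ* and 30 in *cop1-4* against Col-0, 27 in *spaQ* against *cop1-4*, 6 and 4 for red light in *phyB-GFP FL* and ΔC, 1 for ΔC against FL in darkness and 13 for FL against Col-0. Of all genes, 16190, 14870 and 10762 of 20396 passed in the first 3 of these. Within the phyB-GFP lines 1824, 1055 and 384 of 20459 passed, and 6182 of 20949 for FL against Col-0. With the limits that the methods write, log2 fold changes of 2 and, for the phyB-GFP lines, 1.5, the counts of members were 0 in *spaQ*, 0 in *cop1-4*, 0 for *spaQ* against *cop1-4*, 1 for red light in FL and 0 in ΔC. No share of all genes is given here for these limits, DESeq2, the replicate block or the fits with 1 library left out. Library size alone gave 9 calls in *spaQ*, where TMM gave 16, and in *cop1-4* it turned *CAO* to -0.07, *HEMC* to -0.06 and *GSA1* to -0.03. Deviations of same-numbered libraries from their group means correlated at -0.37 to 0.255 over the comparisons and in none at over 0.1 for every number. For ΔC against FL in darkness the correlations were 0.157, 0.057 and 0.136. Whether same-numbered libraries shared a harvest was not tested. A fit with the replicate block gave 16, 8, 1, 4, 2, 0, 0, 0 and 0 calls for *spaQ*, *cop1-4*, *spaQ* against *cop1-4*, red light in FL and in ΔC and the other 4 comparisons, the counts of the fit without it. Leaving out 1 library in turn gave 15 to 16 calls in *spaQ*, 7 to 8 in *cop1-4*, 0 to 1 between the mutants, 3 to 5 for red light in FL, 1 to 2 in ΔC and 0 to 2 for FL against Col-0. DESeq2 gave 15, 7, 1, 4 and 2 calls in the first 5 of these comparisons. A further 1000 values under these settings were log2 fold changes of single genes and counts of the other pathway genes called. Of these, 968 were kept and 3 turned direction. A log2 fold change was kept if its direction and its side of the adjusted p limit held, whatever the fold limit. A count was kept if it changed by no more than 1.5-fold. Calls lost by the fold limit alone thus do not show in the values of single genes. Of 786 such values with 1 library left out, 752 were kept and 0 turned. The depth limits what can be said of *HO3* and of *GUN4*, which had few counts.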
